A study of Homo sapiens and Mus musculus with 56 samples.

Results

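Polyamines are small positively charged molecules that cells need for growth, and 10 genes that make, break down or regulate them were followed on the arrays of 5 human glioblastoma lines treated with a MET kinase inhibitor. They are ODC1, AMD1, SRM and SMS, which carry synthesis, SAT1, SMOX and PAOX, which carry catabolism, and OAZ1, OAZ2 and AZIN1, which control ornithine decarboxylase. All 10 had a probe set naming that gene alone among 18417 human genes. On mouse arrays 6 of the 10 did (Odc1, Srm, Sat1, Smox, Oaz2 and Azin1) among 19938 genes. Mouse Oaz1 and Sms lie only on probe sets that also name a pseudogene and get no value here, and Amd1 and Paox were not analysed on mouse arrays. The genes were chosen by their place in the pathway, with earlier results of these data known, and which measured values bore on the choice is not recorded. The p-values given below therefore place these genes among all genes of an array and are not independent support.

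Ornithine decarboxylase, encoded by ODC1, turns ornithine into putrescine and is a classic target of the transcription factor MYC. AMD1 makes the decarboxylated S-adenosylmethionine that spermidine synthase (SRM) and spermine synthase (SMS) use to lengthen putrescine to spermidine and spermidine to spermine. SAT1 acetylates spermidine and spermine for export or for oxidation by PAOX, and SMOX oxidises spermine directly. The antizymes OAZ1 and OAZ2 bind ornithine decarboxylase, send it to the proteasome and hold back polyamine uptake, and the antizyme inhibitor AZIN1 takes antizyme away from the enzyme. Tumour cells, glioma cells among them, often run this pathway at a high rate.

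The promoter stretches below are shown because MYC and its partner MAX bind the hexamer CACGTG, an E-box, and because ODC1 was the member with the largest called difference on both platforms. They come from RefSeq (GRCh38.p14), 5′ to 3′ on the strand of the gene, with each CACGTG in capitals. For ODC1, on the minus strand of chromosome 2, RefSeq lists a downstream and an upstream start. The stretch for the downstream start, chr2:10448001-10448112, runs from 100 bases before the start to 12 bases after it, and that for the upstream start, chr2:10448328-10448577, holds the 250 bases before the start. The stretch for SRM, on the minus strand of chromosome 1 (chr1:11060119-11060268), holds the first 150 of the 250 bases before the start.
ODC1 downstream start: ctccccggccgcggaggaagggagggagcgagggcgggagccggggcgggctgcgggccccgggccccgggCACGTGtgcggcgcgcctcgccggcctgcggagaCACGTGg
ODC1 upstream start: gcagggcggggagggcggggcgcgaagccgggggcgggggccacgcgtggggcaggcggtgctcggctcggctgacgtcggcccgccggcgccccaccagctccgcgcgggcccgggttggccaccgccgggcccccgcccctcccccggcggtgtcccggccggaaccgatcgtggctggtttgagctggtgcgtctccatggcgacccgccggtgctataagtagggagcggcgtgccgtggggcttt
SRM: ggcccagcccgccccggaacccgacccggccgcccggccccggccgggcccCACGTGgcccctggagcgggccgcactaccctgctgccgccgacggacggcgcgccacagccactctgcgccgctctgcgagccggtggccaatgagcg
The ODC1 window of the downstream start holds 2 boxes, one beginning 29 bases before the start and one just after it, and the SRM window holds 1, beginning 199 bases before the start. The search covered windows from 250 bases before to 50 after a start, and CACGTG reads the same on both strands. Read here were 10 windows of 7 members (ODC1, AMD1, SRM, SMS, SAT1, OAZ1 and OAZ2), some of which overlap. No window of SMOX, PAOX or AZIN1 was used. Member windows on the chromosome that carries AZIN1 were left out, a filter that the count of all windows did not have. Of these 10 windows 2 held the hexamer, the downstream one of ODC1 and that of SRM, against 2548 of all 35116 windows (7.26%). A match in these letters is a description of the window and does not show that a factor binds there.

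The study compared vehicle with V-4084, a compound that the labels describe as a selective inhibitor of the MET receptor kinase, over 7 days in the glioblastoma lines U87M2, U118, SF295, U251M2 and DBM2. Per the labels, 28 human arrays hold cells in culture, with DMSO as vehicle and V-4084 from a 0.01 M stock, the final concentration not being given in the sources used here. The 28 mouse arrays hold, by their labels, tumours that grew from 500000 cells under the flank skin of nude mice, with 0.5% MC 400 and 0.05% Tween 80 as vehicle and V-4084 at 30 mg/kg. Each array took 200 ng of RNA, and a tumour in a mouse holds human tumour cells beside mouse host cells. How far human RNA binds the mouse probe sets was not tested. One measurement bears on the label of the human arrays as cultured cells. Over 27 pairs of a human and a mouse array with equal line, treatment and number, the deviations of the mean skeletal muscle level from the group means gave r = 0.941 (15 human and 16 mouse genes), although the human level was low (5.98 to 6.98 over the arrays). For the other marker lists r ran from -0.133 (endothelial) to 0.614 (fibroblast). Whether the human arrays hold cultured cells, as labelled, or RNA of the same tumours was not settled here, so they are called human arrays throughout. Groups held 3 arrays, except 2 for SF295 with vehicle and 2 with V-4084 on human arrays, 2 for SF295 with vehicle on mouse arrays and 2 for U251M2 with V-4084 on mouse arrays. Nothing in the labels says that the arrays of a group came from separate cultures or animals, so a p-value here measures only the spread between arrays.

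Values are log2 intensities after RMA, so a difference of 1 is a doubling, and levels are compared only within a probe set. The labels of 3 human arrays conflict, naming DBM2 (treated with V-4084) in the title and SF295 in other fields, and the title was followed. ODC1 on them lay between 10.94 and 11.52, against 11.34 to 11.69 on DBM2 and 9.81 to 9.86 on SF295 vehicle arrays. SAT1 lay between 8.3 and 10.0, against 9.9 to 10.1 and 11.5 to 11.7. Both genes thus lay nearer DBM2, whereas SMS on replicate 2 (9.15) lay nearer SF295 (9.48 to 9.56) than DBM2 (10.6). Array medians lay between 6.63 and 6.87 (human) and between 6.11 and 6.31 (mouse). On 3 human V-4084 arrays the values spread less (SD 1.75 for DBM2 replicate 2, 1.90 for U251M2 replicate 1 and 1.90 for SF295 replicate 2), and many of the differences and averages that they enter are given with and without them. Of the glial markers on human vehicle arrays, VIM lay between 11.86 and 12.19 and NES between 7.63 and 9.83 in every line, against a median gene at 7.15. GFAP ran from 6.50 in DBM2 to 11.41 in U251M2 and SOX2 from 5.94 in U87M2 to 11.26 in U251M2, and OLIG2 (5.60 to 5.90) and AQP4 (4.93 to 5.15) were low in all 5 lines. In the line U87M2, where most calls below fall, MET itself fell on human arrays by 1.06 on the log2 scale (limma, adjusted p = 3.13e-05), and HGF, its ligand, differed by -0.03 (adjusted p = 0.919). MET differed by -0.61 in U118 (limma, adjusted p = 0.0767), -0.46 in DBM2 (0.115), 0.37 in SF295 (0.605) and -0.01 in U251M2 (0.99). Its average over lines was -0.35 (limma, adjusted p = 0.00454). Without the 3 arrays that spread less, MET in U118 passed (limma, adjusted p = 0.00177).

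Without drug, each of the 10 genes on human arrays passed limma's F test across the 5 vehicle groups after Benjamini-Hochberg (BH) adjustment over all genes, where 58.4% of all human genes did. For 3 of them the call was near the threshold. PAOX (limma, adjusted p = 0.0329) lost it with quantile normalization and without any 1 vehicle array of U87M2 or U251M2. OAZ2 (0.0223) lost it without U118 replicate 3, U87M2 replicate 1 or U87M2 replicate 3, and AZIN1 (0.0303) without SF295 replicate 1, U118 replicate 2 or U118 replicate 3. Without the U87M2 line AMD1, OAZ2 and PAOX did not pass. Marker lists differed between lines too: on these arrays the fibroblast list mean lay between 11.18 and 11.30 in U118 and between 8.29 and 9.61 in the other lines, and their part in the member levels was not tested. ODC1 stood highest in DBM2, at 11.34, 11.69 and 11.55 on its 3 arrays. The other 4 lines lay close together, with means of 10.34 in U118, 10.16 in U251M2, 10.14 in U87M2 and 9.84 in SF295. The step from DBM2 to U118 was 1.18 (SE 0.14, limma, adjusted p = 1.18e-07), and none of the 3 steps below it passed (adjusted p = 0.405, 0.933 and 0.167). DBM2 thus carried more ODC1 signal than any other line, with no overlap between its vehicle arrays and theirs.

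SAT1, the acetyltransferase of the catabolic arm, was ordered differently. Its vehicle means were 11.58 ± 0.11 (SD, n = 2) in SF295, 10.69 ± 0.10 (n = 3) in U251M2, 10.03 ± 0.09 (n = 3) in DBM2, 9.43 ± 0.10 (n = 3) in U118 and 8.90 ± 0.36 (n = 3) in U87M2. The steps from SF295 to U251M2 (limma, adjusted p = 0.014) and from U251M2 to DBM2 (0.0394) passed, and those from DBM2 to U118 (0.0569) and from U118 to U87M2 (0.105) did not. From the highest to the lowest line SAT1 spanned 2.68 on the log2 scale, the widest range among the 6 members measured on both platforms. SMOX, spermine oxidase, was highest in U251M2 (8.13 ± 0.05) and DBM2 (8.11 ± 0.09), which did not differ (difference 0.02, SE 0.10, limma, adjusted p = 0.924). It stepped down from DBM2 to SF295 (7.73, adjusted p = 0.0152), from SF295 to U118 (7.37, 0.0193) and from U118 to U87M2 (7.01, 0.00822). U87M2 was therefore the line with the lowest mean in both SAT1 and SMOX.

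The other synthesis genes spread less. SRM ran from 10.21 in U87M2 and 10.17 in U118 through 9.86 in SF295 and 9.55 in U251M2 to 9.24 in DBM2, and no neighbouring pair in this order passed (limma, adjusted p from 0.0638 to 0.874). SMS ran from 10.62 in DBM2 and 10.26 in U251M2 to 9.84 in U87M2, 9.52 in SF295 and 9.33 in U118, again with no step between neighbours that passed (adjusted p from 0.287 to 0.761). DBM2 thus had the lowest mean for spermidine synthase and the highest for ornithine decarboxylase and spermine synthase. AMD1 ran from 8.88 in U87M2 to 8.27 in U118, and none of its neighbouring steps passed (adjusted p from 0.458 to 0.88). PAOX, the oxidase of acetylated polyamines, ran from 7.81 in U251M2 to 7.34 in U87M2 (neighbours, adjusted p from 0.318 to 0.875).

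Both antizymes had their highest mean in U87M2 and the antizyme inhibitor in U118. OAZ1 ran from 11.95 in U87M2 through 11.65 in U118, 11.54 in DBM2 and 11.42 in SF295 to 11.01 in U251M2, and only the last of these steps passed (limma, adjusted p = 0.0371). OAZ2 ran from 8.99 in U87M2 to 8.35 in U118, and AZIN1 from 9.19 in U118 to 8.59 in SF295, with no neighbouring step that passed in either. The plot of human levels shows how few arrays lie behind each mean.

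**Figure D1:**
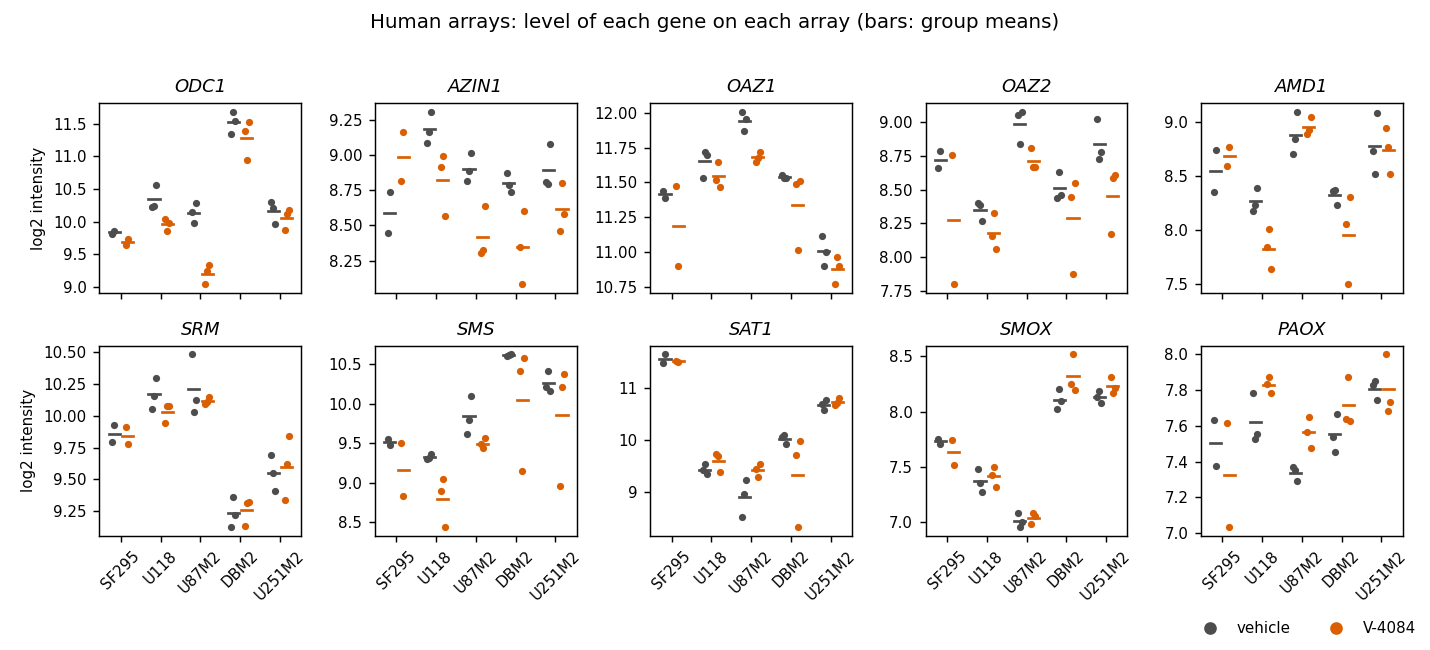
Level of each of the 10 genes on each human array (y axis, log2 intensity, own scale per gene, not starting at 0) by line (x axis), with vehicle arrays in grey, V-4084 arrays in orange and short bars at the group means. The 3 U87M2 V-4084 arrays of ODC1 (9.04 to 9.34) lie below the 3 vehicle arrays (9.98 to 10.29), and single V-4084 arrays of DBM2, U251M2 and SF295 lie far below the others in SMS and OAZ2.

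On mouse arrays, 4 of the 6 measured genes differed between the tumours of the lines (Odc1, Sat1, Smox and Oaz2), where 54.3% of all mouse genes did, and Srm (limma, adjusted p = 0.224) and Azin1 (0.391) did not pass. Odc1 was highest in U87M2 tumours (7.55 ± 0.14, SD, n = 3), followed by SF295 (7.22), DBM2 (7.14), U251M2 (6.99) and U118 (6.98), and no step between neighbours passed (adjusted p = 0.056, 0.648, 0.606 and 0.942). DBM2, the line with the highest ODC1 on human arrays, was the third here and the second on the other Odc1 probe set, where the means were 6.88 in U87M2, 6.74 in DBM2, 6.56 in U251M2, 6.39 in SF295 and 6.29 in U118. Sat1 had its highest mean in SF295 tumours (9.96) and its lowest in U87M2 tumours (9.14), the same lines as on human arrays. Between them lay U118 (9.55), U251M2 (9.43) and DBM2 (9.20). No step between neighbours passed (limma, adjusted p = 0.059, 0.425, 0.336 and 0.855), and DBM2 lay only 0.06 above U87M2. SF295 and U87M2 themselves differed (adjusted p = 5.24e-05). Smox ran from 8.54 in SF295 and 8.50 in DBM2 to 7.94 in U118, and only its last step, from U87M2 (8.20) to U118, passed (limma, adjusted p = 0.0444). Oaz2 ran from 8.24 in U87M2 to 7.51 in U118 with no neighbouring step that passed. The range over lines was narrower on mouse than on human arrays for Odc1 (0.57 against 1.69), Sat1 (0.83 against 2.68), Smox (0.60 against 1.12), Srm (0.27 against 0.97) and Azin1 (0.28 against 0.59), and wider for Oaz2 (0.73 against 0.63).

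The U118 tumours had the lowest means of Odc1, Smox, Oaz2 and Srm and the highest of Azin1, though Srm and Azin1 did not pass between lines. They also had the highest mean of the muscle and fat marker lists with vehicle. Their skeletal muscle list lay between 8.41 and 9.68, against 6.36 to 8.91 in the other lines, and their adipocyte list between 7.80 and 8.20, against 6.24 to 7.26. Of 16 muscle genes 2 (Myoz1 and Pygm) passed limma's F test across the vehicle tumours, and all 5 adipocyte, 10 fibroblast, 8 macrophage and 8 endothelial genes did. The macrophage list mean ran from 8.93 in SF295 and 8.86 in U118 to 7.64 in DBM2. The fibroblast list ran from 10.02 in DBM2 to 9.17 in U87M2, and the endothelial list from 8.69 in U87M2 to 7.95 in DBM2. The part of these markers in the member levels was not tested.

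Across the 10 groups of line and treatment, the human and mouse means of a gene gave Pearson r of 0.656 for SAT1, 0.618 for OAZ2, 0.576 for AZIN1, 0.555 for SMOX, 0.22 for ODC1 and -0.489 for SRM. Without the 3 narrow-spread arrays they ran from -0.413 for SRM to 0.664 for OAZ2. These are descriptions over 10 points that share lines. The deviations of single arrays from their group means, over 27 pairs of a human and a mouse array with equal line, treatment and number, gave r between -0.177 and 0.182 for the 6 genes.

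The drug comparison asks what 7 days of MET inhibition do to these genes in each line, and U87M2 was the line in which members were called. ODC1 read 10.14, 9.98 and 10.29 on the 3 U87M2 vehicle arrays and 9.04, 9.24 and 9.34 on the 3 V-4084 arrays of the human platform. Every treated array lay below every vehicle array. The difference was -0.93 (SE 0.14, limma, BH-adjusted p = 3.19e-05), a level 1.91 times lower. It remained called in all 28 fits that each left out 1 array.

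AZIN1, whose product protects ornithine decarboxylase from antizyme, also fell in U87M2. Its arrays read 8.82, 8.88 and 9.01 with vehicle and 8.30, 8.32 and 8.64 with V-4084, without overlap. The difference was -0.48 (SE 0.15, limma, adjusted p = 0.0231). The call was lost in 3 of the 28 fits that left out an array (U87M2 vehicle replicate 3, V-4084 replicate 1 or V-4084 replicate 2), with an adjusted p of up to 0.113. In the other synthesis genes, the U87M2 differences were 0.07 for AMD1, -0.09 for SRM and -0.34 for SMS, and none passed.

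SAT1 lay at 8.51, 8.95 and 9.23 on the U87M2 vehicle arrays and at 9.45, 9.29 and 9.53 on the V-4084 arrays, so all treated arrays were above all vehicle arrays. The difference of 0.53 (SE 0.24) had a limma adjusted p of 0.159 and was not called. PAOX differed by 0.23 and SMOX by 0.03. The antizymes OAZ1 (-0.26, adjusted p = 0.2) and OAZ2 (-0.27, adjusted p = 0.367) lay lower on all 3 treated arrays without passing.

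In all, 2 of 10 members were called in U87M2 on human arrays, where 15.0% of all genes were. Both were lower, against 9.62% of all genes called lower, and none was higher, against 5.37%. The U87M2 arrays did not overlap between treatments for 7 of 10 members, which all genes did in 39.6% of cases. The median difference of the 10 members was -0.18 and that of all genes 0.02. Although none of the 3 arrays of narrow spread is from U87M2, they enter the shared estimate of spread. Without them the same differences had smaller errors, and 6 of 10 members were called in U87M2 against 26.1% of all genes. These were ODC1 (adjusted p = 1.23e-06), SMS (0.0436), OAZ1 (0.0184), OAZ2 (0.0405) and AZIN1 (0.00459), all lower, and SAT1 (0.00458), higher.

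**Figure D2:**
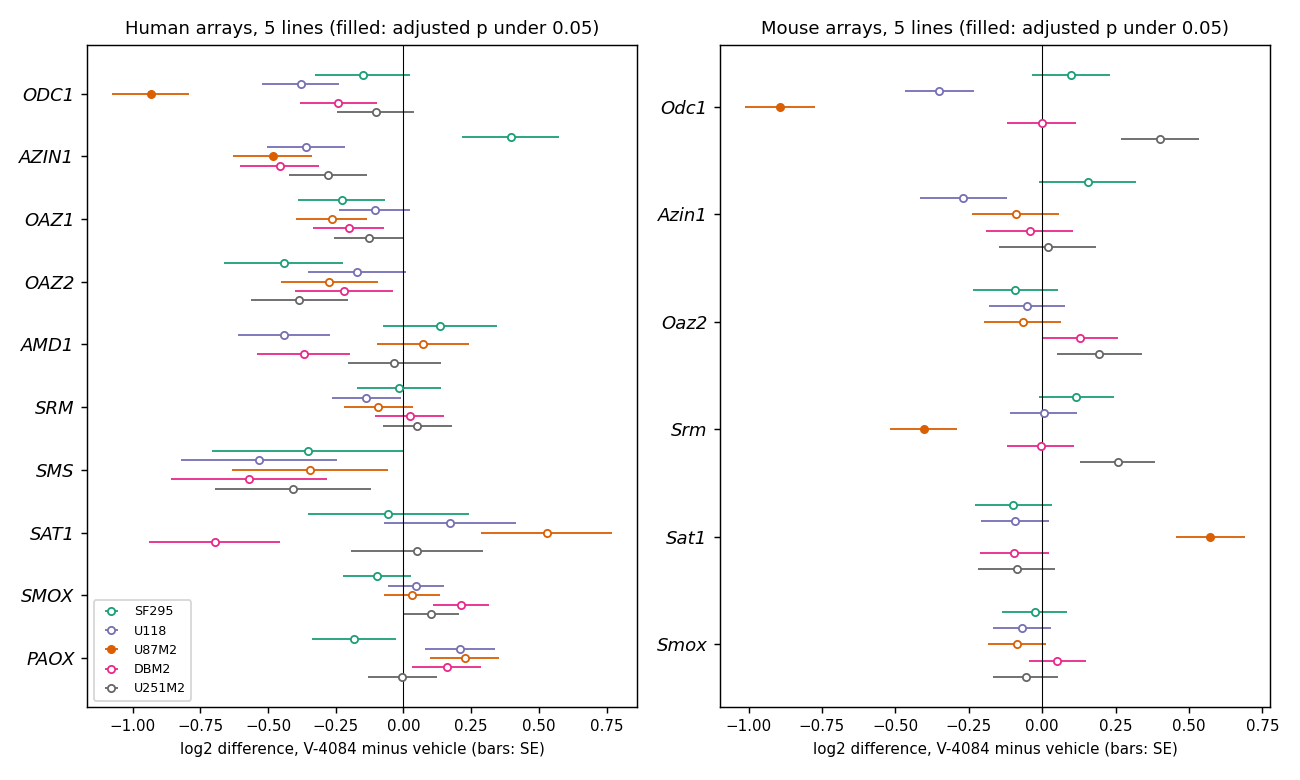
Log2 difference of V-4084 minus vehicle with its SE (x axis) for each gene (y axis) in each of the 5 lines (colours), human arrays on the left and mouse arrays on the right. Filled points have an adjusted p under 0.05: on human arrays ODC1 and AZIN1 in U87M2, and on mouse arrays Odc1, Srm and Sat1 in U87M2.

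In the other 4 lines no member was called on human arrays in the main limma fit. ODC1 differed by -0.38 in U118, -0.24 in DBM2, -0.15 in SF295 and -0.10 in U251M2 (adjusted p = 0.328, 0.264, 0.813 and 0.818). Without the narrow-spread arrays ODC1 differed by -0.07 in DBM2, -0.20 in SF295 and -0.01 in U251M2 (limma, adjusted p = 0.826, 1 and 0.994). In U118 its arrays read 10.23, 10.24 and 10.56 with vehicle and 10.05, 9.86 and 9.98 with V-4084, which do not overlap. With array weights ODC1 was called in U118 (limma, adjusted p = 0.00475), a setting whose share of all genes called is given at the end. The share of all genes without overlap was counted in U87M2 alone, where it was 39.6% on human arrays. Of all genes 0% were called in SF295, 0.755% in U118, 0% in DBM2 and 0% in U251M2. At an unadjusted p under 0.05, 1 of 10 members passed in SF295 (1581 of all genes), 3 in U118 (1868 genes), 4 in DBM2 (4920 genes) and 1 in U251M2 (1110 genes). In SF295 it was AZIN1 (0.40) and in U251M2 OAZ2 (-0.38). In U118 they were ODC1, AMD1 (-0.44) and AZIN1 (-0.36), all lower. In DBM2 they were SAT1 (-0.70), AZIN1 (-0.46), AMD1 (-0.37) and SMOX (0.21).

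The narrow-spread array of DBM2 weighed on these values. SAT1 read 9.70, 8.31 and 9.97 on the DBM2 V-4084 arrays, the second being that array, and 10.06, 10.10 and 9.92 with vehicle. SMS read 10.41, 9.15 and 10.58 on the same V-4084 arrays against 10.61, 10.62 and 10.62 with vehicle. The other narrow arrays were low in SMS too, at 8.96 in U251M2 beside 10.21 and 10.38, and at 8.83 in SF295 beside 9.50. On the remaining V-4084 arrays of these 3 lines SMS lay within or close to the range of the vehicle arrays. Without the 3 narrow arrays, SMS differed by -0.12 in DBM2, 0.03 in U251M2 and -0.02 in SF295. In DBM2 SAT1 then differed by -0.19, AMD1 by -0.14 and SMOX by 0.12. In these 3 lines 0 members were called by limma without the narrow arrays, where 0% of all genes were called in each line. At an unadjusted p under 0.05 only AZIN1 in DBM2 (-0.33) and OAZ2 in U251M2 (-0.24) passed among the members.

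U118 holds no array of narrow spread. Its SMS arrays read 9.31, 9.31 and 9.37 with vehicle and 8.90, 9.05 and 8.44 with V-4084, so spermine synthase did not overlap between treatments. The share of all genes without overlap was not counted in this line. The difference was -0.53 with an SE of 0.29 (limma, adjusted p = 0.528) in the fit of all arrays, and with an SE of 0.12 (adjusted p = 0.0154) in the fit without the narrow arrays, where SMS was the 1 member called in U118 against 3.3% of all genes.

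Averaged over the 5 lines with equal weights, 5 of 10 members fell on human arrays, against 11.6% of all genes called. Those 5 were lower, against 8.23% of all genes called lower, and none was higher, against 3.38%. They were ODC1 (-0.36, SE 0.07, limma adjusted p = 0.00147), SMS (-0.44, SE 0.14, adjusted p = 0.0356), OAZ2 (-0.30, SE 0.08, 0.0247), AZIN1 (-0.24, SE 0.07, 0.0272) and OAZ1 (-0.19, SE 0.06, 0.0487). SAT1 (0.00), SMOX (0.06) and PAOX (0.08) were not called. Of these calls only that of ODC1 remained in all 28 fits that each left out 1 array. The others were lost in 20 of the 28 for OAZ1, 13 for SMS, 6 for AZIN1 and 2 for OAZ2 (SF295 vehicle replicate 2 or V-4084 replicate 2). The members' median was -0.16, with 8 of 10 below 0, and that of all genes 0.01, with 46.6% below 0.

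Without the 3 narrow-spread arrays ODC1 (-0.32, limma adjusted p = 0.00149), SMS (-0.20, 0.0493) and AZIN1 (-0.23, 0.0215) were called, and OAZ1 (-0.08, 0.189) and OAZ2 (-0.13, 0.0875) were not. SAT1 then stood at 0.11, the members' median at -0.10 and 7 of 10 below 0. Without the DBM2 line, whose V-4084 labels conflict, ODC1 (-0.39, 0.000613), SMS (-0.41, 0.0427) and OAZ2 (-0.32, 0.0246) were called. The average also shares the arrays of U87M2. Without that line 0 of 10 members and 0 of all genes were called (5 members and 3412 genes at an unadjusted p under 0.05), with ODC1 at -0.22 (limma adjusted p = 0.201) and SMS at -0.47 (0.196). AZIN1 was lower with V-4084 in U118, U87M2, DBM2 and U251M2 and higher in SF295, by 0.40 (limma, adjusted p = 0.559) and by 0.22 without its narrow-spread array.

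Whether the drug difference itself varied between the 5 lines was tested by an F test. On human arrays ODC1 passed it (limma, adjusted p = 0.0486), 1 of 10 members against 5.53% of all genes. That call lies at the threshold: it was lost in 20 of 28 fits that left out an array, and the adjusted p was 0.0024 without the 3 narrow-spread arrays and 0.0113 without DBM2. AZIN1 had 0.0885 and SAT1 0.185, and 0.233 and 0.13 without the narrow-spread arrays.

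On mouse arrays of U87M2 tumours 3 of 6 members were called, against 3.72% of all genes. Odc1 read 7.38, 7.64 and 7.62 with vehicle and 6.65, 6.81 and 6.50 with V-4084. Again no treated array reached a vehicle array, and the difference was -0.89 (SE 0.12, limma, adjusted p = 7e-05), a level 1.86 times lower. A further probe set for Odc1, read after the first values were seen, gave 6.72, 6.78 and 7.14 with vehicle and 6.02, 6.29 and 6.15 with V-4084, a difference of -0.73 (adjusted p = 0.00166). Both probe sets for ornithine decarboxylase thus fell in these tumours. The median gene on mouse arrays lay at 6.49, close below the V-4084 arrays of the first probe set and above those of the further one.

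Srm, spermidine synthase, fell as well in U87M2 tumours, from 8.21, 8.30 and 8.28 to 7.82, 8.00 and 7.76, by 0.40 on the log2 scale (SE 0.11, limma adjusted p = 0.0462). This call was lost in 19 of the 28 fits that left out an array, with an adjusted p of up to 0.153. Sat1 rose from 8.88, 9.24 and 9.30 to 9.86, 9.54 and 9.73, by 0.57 (SE 0.12, limma adjusted p = 0.00495), and without vehicle replicate 1, its lowest array, the adjusted p was 0.0546. The synthesis and catabolism genes called in these tumours thus moved in opposite directions. Smox (-0.09), Oaz2 (-0.07) and Azin1 (-0.09) were not called. The 2 lower members stand against 1.22% of all mouse genes called lower and the 1 higher member against 2.49%. The U87M2 arrays did not overlap between treatments for 3 of 6 members, against 18.5% of all genes.

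**Figure D3:**
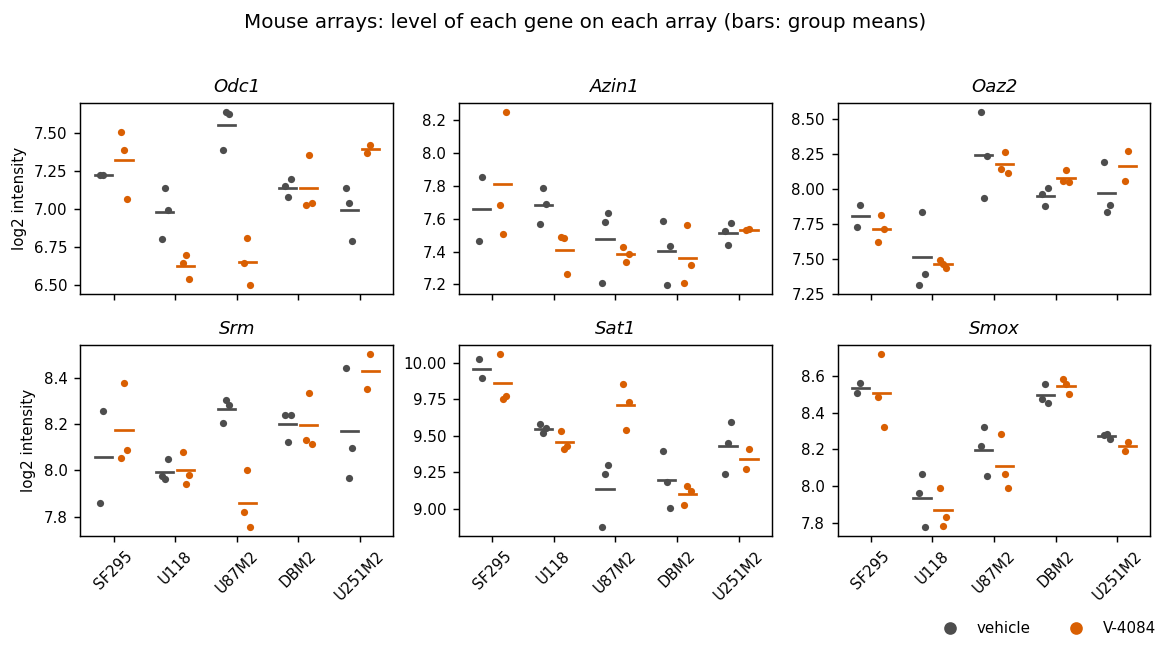
Level of each of the 6 genes on each mouse array (y axis, log2 intensity, own scale per gene, not starting at 0) by line (x axis), with vehicle arrays in grey, V-4084 arrays in orange and bars at the group means. In U87M2 the V-4084 arrays of Odc1 (6.50 to 6.81) lie below and those of Sat1 (9.54 to 9.86) above the vehicle arrays, and in U251M2 both V-4084 arrays of Odc1 (7.37 and 7.42) lie above the vehicle arrays.

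In tumours of the other lines no member was called by limma, against 0.0100% of all genes in SF295, 0.0100% in U118, 0% in DBM2 and 0.0401% in U251M2. At an unadjusted p under 0.05, 0 of 6 members passed in SF295 (1341 of all genes), 1 in U118 (1355 genes), 0 in DBM2 (458 genes) and 1 in U251M2 (2670 genes). In both lines that 1 was Odc1. In U118 tumours Odc1 read 6.80, 7.13 and 7.00 with vehicle and 6.64, 6.70 and 6.54 with V-4084 (-0.35, adjusted p = 0.578). In U251M2 tumours it read 7.14, 7.04 and 6.79 with vehicle and 7.37 and 7.42 with V-4084 (0.40, adjusted p = 0.26). On this probe set the treated arrays lay below the vehicle arrays in U118 and above them in U251M2. On the other Odc1 probe set they overlapped in both lines, with differences of -0.14 in U118 (limma, adjusted p = 0.893) and 0.25 in U251M2 (0.457). The share of all genes without overlap was not counted in these lines, and U251M2 had only 2 treated arrays. Marker lists differed in the same tumours, and their part in these values was not tested. In U118 the muscle list went from between 8.41 and 9.68 to between 6.25 and 9.30 (median difference -1.67; 0 of 16 called by limma, 10 at an unadjusted p under 0.05) and the adipocyte list from between 7.80 and 8.20 to between 8.09 and 9.17 (0.66; 0 of 5 called, 3 at an unadjusted p under 0.05). In U251M2 the fibroblast list went from between 9.34 and 9.55 to between 9.79 and 9.86 (0.36; 0 of 10 called by limma, 4 at an unadjusted p under 0.05). Odc1 on the first probe set differed by 0.10 in SF295 and by 0.00 in DBM2.

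The drug difference in Odc1 varied between the tumours of the 5 lines (limma F test, adjusted p = 0.00351), 1 of 6 members against 0.341% of all mouse genes. With the further Odc1 probe set the adjusted p was 0.0624, and without U87M2 0 members were called (1 at an unadjusted p under 0.05). Averaged over the lines 0 of 6 mouse members were called by limma, against 0.0702% of all genes, with 1 member, Odc1 (-0.15, adjusted p = 0.363), at an unadjusted p under 0.05.

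Set side by side, U87M2 gave -0.93 in ODC1 on human and -0.89 on mouse arrays, 0.53 (not called) and 0.57 in SAT1, -0.09 (not called) and -0.40 in SRM, and -0.48 and -0.09 (not called) in AZIN1. The platforms were not fitted together, and differences between these pairs of values were not tested.

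Genes of the cell type lists moved with treatment in U87M2. The name of a list does not say which cells carried its signal, and this was not tested. On human vehicle arrays of the 5 lines the fibroblast list mean already lay between 8.29 and 11.30. On human arrays 9 of 10 fibroblast genes rose (median difference 1.09), and the mean level of the list went from between 9.23 and 9.61 with vehicle to between 10.42 and 10.47 with V-4084. Of the other lists there, 0 of 15 skeletal muscle, 0 of 6 adipocyte and 0 of 2 erythroid genes were called by limma (0 in each at an unadjusted p under 0.05), 1 of 9 macrophage and monocyte genes was lower, 1 of 8 endothelial genes was higher with 2 lower, and 1 of 10 glial genes, CD44, was lower (-0.87). On mouse arrays 0 of 10 fibroblast genes (list mean from 8.71 to 9.78 with vehicle and from 9.20 to 9.77 with V-4084), 0 of 16 muscle genes (6.54 to 7.53 and 6.31 to 6.49), 0 of 5 adipocyte genes and 0 of 1 erythroid gene were called by limma (4, 0, 3 and 0 at an unadjusted p under 0.05). There 2 of 8 macrophage genes were higher, 2 of 8 endothelial genes were higher with 1 lower, and 1 of 10 glial genes, Nes, was lower (-0.84). The part of these markers in the member values was not tested, and in bulk RNA fewer cells of a type and less RNA per cell cannot be told apart.

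The wider pathway was read from 6 lists of further genes. Of their 35 genes measured on human arrays, 1 was called higher and 4 lower in U87M2, where 15.0% of all genes were called. In U87M2 on human arrays 1 of 9 genes of arginine and ornithine supply fell, SLC7A1, a transporter that brings arginine into the cell (-0.47, SE 0.11, limma adjusted p = 0.00417). Of 7 measured genes of polyamine transport, 2 fell and 1 rose. ATP13A3, a P-type ATPase of polyamine uptake, read 9.69, 9.82 and 9.97 with vehicle and 8.87, 8.84 and 9.02 with V-4084 (-0.92, adjusted p = 0.000204). SLC3A2, the heavy chain of several amino acid exchangers, fell by 0.56 (adjusted p = 0.0356). ATP13A2, a relative of ATP13A3 that exports polyamines from lysosomes, rose from 8.82, 8.35 and 8.40 to 9.36, 9.43 and 9.37 (0.86, adjusted p = 0.000752). The uptake ATPase and its lysosomal relative thus moved in opposite directions, each without overlap of its arrays, which 39.6% of all genes showed.

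MYC, from the list of factors known to act on ODC1, fell in U87M2 from 7.60, 7.34 and 7.37 to 6.21, 6.40 and 6.24 (-1.16, SE 0.13, limma adjusted p = 3.95e-07), and the other 2 of that list did not pass. In the other lines MYC differed by 0.27 in SF295, -0.18 in U118, 0.50 in DBM2 and 0.29 in U251M2, none called. Its drug difference varied between lines (limma F test, adjusted p = 5.4e-06), as did those of ATP13A3 (0.00717) and SLC7A1 (0.0116). These were 3 of the 35 list genes, against 5.53% of all genes. Without the narrow-spread arrays the same F tests gave 1.73e-06, 0.00499 and 0.00323. In that fit SLC3A2 (0.00761) and ATP13A2 (0.0445) passed as well, and 7 of the 35 genes were called against 10.3% of all genes. In DBM2 MYC read 7.38, 7.74 and 7.17 with V-4084 and 6.87, 6.87 and 7.06 with vehicle. Without the narrow-spread arrays MYC differed by 0.34 in DBM2 (limma, adjusted p = 0.455), 0.28 in SF295 and 0.28 in U251M2, beside the ODC1 values of -0.07, -0.20 and -0.01 given above. In U118 and U87M2, which hold no such array, MYC differed by -0.18 and -1.16, beside ODC1 values of -0.38 and -0.93. Of these MYC differences only that in U87M2 was called, and a link between MYC and ODC1 was not tested.

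**Figure D4:**
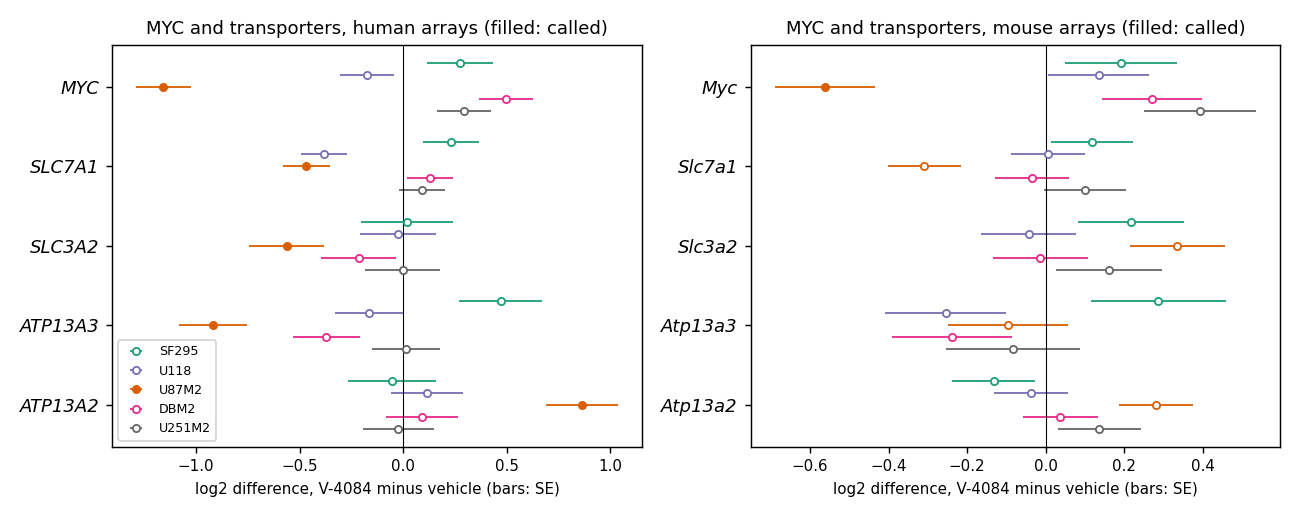
Log2 difference of V-4084 minus vehicle with its SE (x axis) for MYC, the arginine transporter SLC7A1, SLC3A2 and the ATPases ATP13A3 and ATP13A2 (y axis) in each line (colours), human arrays on the left and mouse arrays on the right, on different x scales. Filled points have an adjusted p under 0.05: all 5 genes in U87M2 on human arrays and Myc alone in U87M2 on mouse arrays.

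In the remaining lists of U87M2 on human arrays, 0 of 9 genes of the methionine cycle and salvage, 0 of 3 measured hypusine genes and 0 of 4 other antizymes, inhibitors and acetyltransferases were called by limma (2, 0 and 0 at an unadjusted p under 0.05). None of the 35 genes was called in SF295, U118, DBM2 or U251M2 (3, 4, 7 and 2 at an unadjusted p under 0.05), against 0%, 0.755%, 0% and 0% of all genes. In the average over lines 1 of the 35 passed, against 11.6% of all genes. It was MAT2B, a regulatory subunit of methionine adenosyltransferase (-0.26, limma adjusted p = 0.0394). Without the 3 narrow-spread arrays MAT2B was not called (-0.16, limma adjusted p = 0.0724), and ATP13A2 (0.30, 0.0094) and ATP13A3 (-0.22, 0.0339) were, also against 11.6% of all genes. In the same fit 11 of the 35 genes were called in U87M2, in place of 5, against 26.1% of all genes. In U118 it was 1, SLC7A1 (-0.38, limma adjusted p = 0.0328), against 3.3% of all genes. On mouse arrays of U87M2, Myc fell from 7.36, 7.10 and 7.34 to 6.74, 6.81 and 6.57 (-0.56, limma adjusted p = 0.0111). Adi1, an enzyme of methionine salvage, rose from 6.41, 6.34 and 6.41 to 6.71, 6.68 and 6.94 (0.39, adjusted p = 0.0204). Myc and Adi1 were the 2 of 34 measured genes called, against 3.72% of all genes, with 9 at an unadjusted p under 0.05. The V-4084 differences there of Slc7a1 (-0.31, limma adjusted p = 0.0662), Slc3a2 (0.33, 0.143), Atp13a2 (0.28, 0.107) and Atp13a3 (-0.10, 0.858) were not called. In tumours of SF295, U118, DBM2 and U251M2 limma called 0 of the 34 (3, 2, 1 and 4 at an unadjusted p under 0.05), against 0.0100%, 0.0100%, 0% and 0.0401% of all genes. Between vehicle groups, 22 of the 35 genes differed on human and 19 of the 34 on mouse arrays, where 58.4% and 54.3% of all genes did.

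The genes most like ODC1 over the 28 human arrays were BCAT1, the cytosolic branched-chain aminotransferase (r = 0.947), MAMLD1 (0.943) and KDM1A, a histone demethylase (0.917). For SAT1 they were IFNGR1, a chain of the interferon gamma receptor (0.926), MED13 (0.920) and the transcription factor TFAP2A (0.909), and for SMOX they were PMEPA1 (0.959), SYNGR1 (0.958) and TFAP2C (0.956). Over the 28 mouse arrays they were Mapk6 (0.845), Adamts1 (0.841) and Rrm2 (0.783) for Odc1, Ifngr1 (0.907), Tec (0.901) and Galc (0.893) for Sat1, and Pfkfb4 (0.889), Rap2a (0.880) and Furin (0.879) for Smox. Over all 28 arrays of each platform the interferon gamma receptor chain was thus the gene most like SAT1. Over the 25 human arrays without those of narrow spread, the same 9 human pairs gave r from 0.912 to 0.976. These correlations describe points that share 5 lines.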

How the data were processed

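The deposited files hold log2 intensities, 1 per probe set, from Affymetrix gene arrays. The submitters' processing notes name RMA and Partek, with versions not given in the sources used here. Arrays were grouped by the title in their labels. Of 33297 human and 35556 mouse probe sets, 19460 and 21789 name 1 gene, 1754 and 1621 several and 12083 and 12146 none. Only the first kind was used, taking the probe set with the highest mean per gene. Arrays have no depth, their number limits the precision, and signal over background was not analysed here.

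The 10 group means of a platform were fitted with limma 3.58.1 (R 4.3.3) on all genes, with 18 residual degrees of freedom and eBayes without trend, and the code was tested on simulated data first. P-values are two-sided, adjusted by Benjamini-Hochberg over all genes of a contrast, and called under 0.05. The members and lists were chosen with earlier results of these data known. The lists are arginine and ornithine supply, methionine cycle and salvage, hypusine, polyamine transport, other antizymes, inhibitors and acetyltransferases, factors acting on ODC1, and 7 cell type lists (skeletal muscle, fibroblast, macrophage and monocyte, endothelial, adipocyte, erythroid, glial). Members are named in every comparison, up to 4 called genes per list by smallest p, and the 3 genes with the highest r for ODC1, SAT1 and SMOX. Predicted genes, pseudogenes, olfactory receptors and small RNA genes were not to be named. Alternatives were quantile normalization, the mean of probe sets, a filter on dim genes, limma-trend, array weights (gene-by-gene method, since the default did not converge on human arrays), a replicate block, leaving out each array, the 3 narrow-spread arrays, the DBM2 line or the U87M2 line, and, added after the data were seen, the other Odc1 probe set and the wider pathway without the narrow-spread arrays.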

Additional observations from a re-analysis of the deposited data

Results flagged for a closer look

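On human arrays the V-4084 difference in ODC1 varied between the 5 lines (limma F test, adjusted p = 0.0486), with -0.93 in U87M2 and values from -0.38 to -0.10 in the other lines. That call was lost in 20 of 28 fits that left out an array, with the replicate block and without the U87M2 line. On mouse arrays the difference in Odc1 varied between the tumours of the 5 lines (limma F test, adjusted p = 0.00351), from -0.89 in U87M2 to 0.40 in U251M2. The mouse call was lost without the U87M2 line and with the other Odc1 probe set.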

How the results depend on the processing

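Of 26 called member values and F tests, 0 reversed and 15 lost the call under some alternative, and 18 of 102 not called were called under one. Of 86 differences that were not called, 34 changed sign under an alternative. Members called in U118 on human arrays numbered 5 with array weights (24.6% of all genes called) and 1 without the 3 narrow-spread arrays (3.3%), against 0. In U87M2 they numbered 6 under both (32.4% and 26.1% of all genes), against 2, and in DBM2 1 with array weights (10.7%), against 0. The 5 in U118 with array weights were ODC1, AMD1, SMS, PAOX and AZIN1. For the human average, 3 members instead of 5 were called with quantile normalization, with the replicate block, without the narrow-spread arrays and without DBM2, and 0 without U87M2. For human differences between lines, 3 instead of 1 were called with array weights (17.4% of all genes), and 0 with the replicate block or without U87M2. For mouse differences between lines 0 instead of 1 were called without U87M2 or with the other Odc1 probe set. With each array left out in turn, members called ranged from 1 to 5 (human average), 0 to 4 (DBM2), 0 to 1 (SF295), 1 to 3 (U87M2) and 0 to 3 (differences between lines) on human arrays, and from 1 to 3 in U87M2 on mouse arrays. The causes were not tested. Deviations of same-numbered vehicle and V-4084 arrays gave r over 0.1 in 3 of 14 human and 3 of 13 mouse pairs (from -0.52 to 0.318 and from -0.349 to 0.297). In U87M2 the pairs gave 0.22, 0.0115 and 0.318 on human and -0.183, 0.176 and -0.15 on mouse arrays. Deviations within groups of 2 or 3 arrays sum to 0, so this check cannot decide whether the numbers pair the arrays. With the replicate block, all genes called in U87M2 numbered 2140 on human and 575 on mouse arrays, against 2760 and 741, ODC1 in U87M2 had an adjusted p of 0.000659, Srm 0.0704 and the human ODC1 difference between lines 0.176. Vehicle levels could not be fitted with the block. Without the narrow-spread arrays 4816 human genes were called in U87M2.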
